A study of Sicyos edulis with 9 samples.

Results

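The 200 unigenes described here held their transcript level in chayote (Sicyos edulis) fruit through the first 15 days of storage and had lost most of it by day 30. They were chosen by their values in all 9 libraries, out of 57814 unigenes. On the scale of log2(FPKM + 1), a unigene had to differ by less than 0.5 between the means of the S1 and S2 stages and to have every S3 library below every S1 and S2 library. Its mean FPKM had to be under 800, and it could not be among the 165 unigenes that the study's supplementary tables list with a name or identity in flavonoid synthesis and its regulation. These conditions were met by 4909 unigenes, and the 200 with the lowest S3 minus S2 difference were taken. FPKM is a count of sequenced fragments scaled to the length of the transcript and to the depth of the library, so it is a level per length.

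The stages were S1, fruit at the optimal harvest stage, S2, fruit after 15 days of storage, and S3, fruit after 30 days of storage, with 3 libraries each. All fruits were mature, grown in an experimental field, untreated, and kept in plastic containers, and how many fruits or which tissue went into a library is not given in the sources used here. In bulk tissue, fewer cells of a type and less RNA per cell cannot be told apart. Unigenes are assembled transcripts with Trinity identifiers, without gene names in the files.

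A harvested fruit is a living organ that goes on respiring and making transcripts from its own reserves. The level of a transcript is set by how fast it is made and how fast it is degraded, and a stable transcript stays on for a time after its synthesis stops. Chayote carries a single large seed that can sprout inside the fruit, so stored fruit contains both ageing flesh and a seed. None of the 200 unigenes was matched to a name in the study's supplementary lists of pathway genes and transcription factors. Of 95 entries there without an identifier, 91 could be matched to 1 unigene. No annotation or sequence of the 200 was at hand, so no function is given to any of them.

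In the S1 libraries the median FPKM of the 200 unigenes was 29.8, 52.4 and 55.1 in replicates 1, 2 and 3. In the S2 libraries it was 42.5, 41.3 and 45.5. In the S3 libraries it was 0.92, 0.805 and 1.10. The 3 S2 libraries thus lay between S1 replicate 1 and the other S1 libraries, and all 3 S3 libraries lay far below. Added up, the 200 unigenes held 1.21%, 2.01% and 2.29% of the FPKM of the S1 libraries, 1.79%, 1.63% and 1.79% of that of the S2 libraries, and 0.0873%, 0.0856% and 0.109% of that of the S3 libraries.

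**Figure D1:**
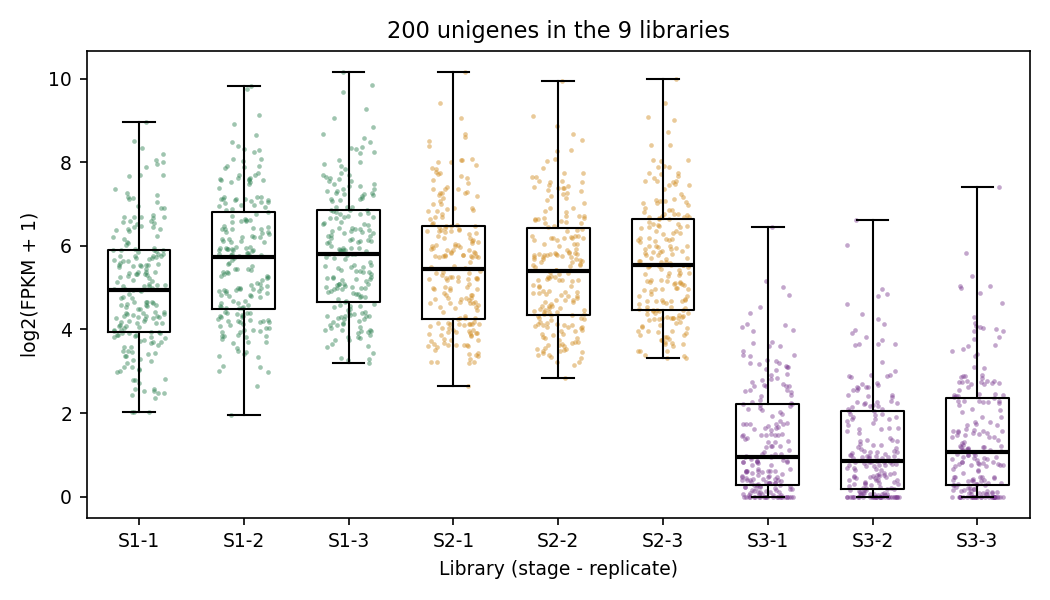
The level of each of the 200 unigenes, as log2(FPKM + 1), in each of the 9 libraries, named by stage and replicate. Points are unigenes, boxes span the quartiles, thick lines are medians and whiskers reach the lowest and the highest unigene. The S1 replicate 1 box lies below those of S1 replicates 2 and 3, and the S3 boxes lie below all others.

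The mean over the S1 and S2 libraries ranged from 7.92 to 952 FPKM, with a median of 44.8, where the median of all 30201 unigenes that reached 1 FPKM in 3 or more libraries (the unigenes tested) was 5.86. The choice on log2(FPKM + 1) asks for such levels, since a unigene near 1 FPKM cannot fall far on this scale. Of the other 4709 unigenes that met the conditions, 625 kept a smaller share of their S2 FPKM than the median of the 200, and these had a median of 0.80 FPKM over S1 and S2 and at most 10.8. Levels of the 4709 nevertheless overlapped those of the 200, with a median of 9.75 FPKM over S1 and S2, an upper quartile of 32.0 and a highest value of 988.

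From S2 to S3 the difference on the log2(FPKM + 1) scale ranged from -8.07 to -3.19, with a median of -3.81. From S1 to S2 it ranged from -0.50 to 0.50, with a median of 0.04. The S3 mean was a median of 2.70% of the S2 mean and at most 14.1%. It was under 1% of the S2 mean for 62 unigenes, between 1% and 5% for 68, between 5% and 10% for 61 and at least 10% for 9. These are the values that chose the unigenes, and they are given as a description.

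A test with limma over all unigenes called all 200 lower from S2 to S3, where it called 23.2% of the unigenes tested lower and 23.3% higher. It also called all 200 lower from S1 to S3, where the share was 25.4%. Between S1 and S2 it called 1 of the 200, where the share in either direction was 17.9%. Since the choice used all 3 differences, nothing is read from these counts.

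The unigene with the lowest difference, TRINITY_DN6256_c0_g1, stood at 207, 867 and 917 FPKM in the S1 libraries, at 688, 555 and 685 in S2 and at 1.08, 0.21 and 4.37 in S3. S1 replicate 1 was the low one of the S1 libraries, while the S2 libraries lay close together. TRINITY_DN12134_c0_g3 had 207, 334 and 459 FPKM in S1, 361, 310.02 and 265 in S2 and 0.94, 0.69 and 0.34 in S3. S1 replicate 1 was its lowest library of S1 and S2 too, the ranges of S1 and S2 overlapped, and all 3 S3 libraries were under 1 FPKM.

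The next in order were listed at 0 in every S3 library. TRINITY_DN1057_c0_g1 had 53.1, 313 and 319 FPKM in S1 and 181, 151 and 108 in S2. TRINITY_DN6714_c0_g2 had 54.7, 192 and 158 in S1 and 146, 104 and 133 in S2. In both, S1 replicate 1 lay below every other S1 and S2 library. These were also the best expressed of the 16 unigenes that were listed at 0 in all 3 S3 libraries, whose means over S1 and S2 ranged from 7.92 to 187 FPKM with a median of 15.7.

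TRINITY_DN24517_c1_g1 was even through both early stages, with 202, 191 and 173 FPKM in S1 and 148, 167 and 211 in S2. It had 0.95, 0.14 and 0.23 FPKM in S3. TRINITY_DN3317_c3_g6 was uneven at harvest, with 59.6, 404 and 532 FPKM in S1, and even in S2, with 217, 198 and 261. In S3 it had 0.26, 0.97 and 2.28 FPKM, so that its S1 replicates spanned a wider range than its S3 replicates did in FPKM.

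**Figure D2:**
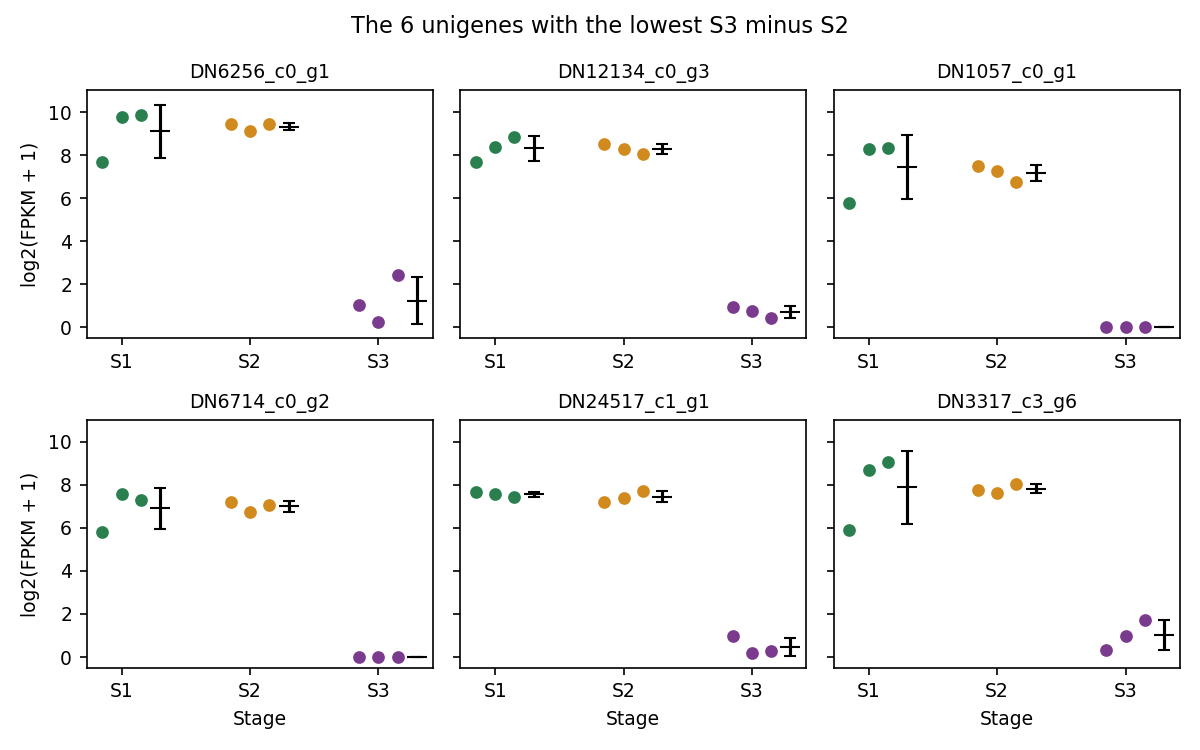
The 6 unigenes with the lowest S3 minus S2 difference. Dots are libraries in the order of replicates 1, 2 and 3, the vertical axis is log2(FPKM + 1), and bars give the mean ± SD (n = 3) of each stage. In all panels but that of TRINITY_DN24517_c1_g1 the first S1 dot lies below all other S1 and S2 dots.

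By level, TRINITY_DN2106_c0_g1 stood first, with 495, 915 and 1146 FPKM in S1, 1146, 987 and 1020.2 in S2 and 86.0, 97.9 and 168 in S3. It kept 11.2% of its S2 mean, so the best expressed of the 200 was also one of the 9 that kept at least 10%. TRINITY_DN6256_c0_g1, already described, was among the 3 best expressed. TRINITY_DN2207_c0_g1 was the other, with 326, 560 and 822 FPKM in S1, 531, 463 and 514 in S2 and 4.43, 3.70 and 5.73 in S3. Levels in S3 thus ranged, among well expressed unigenes, from listed at 0 to over 100 FPKM, and 11 of the 200 were at 10 FPKM or more in every S3 library while 82 were under 1 FPKM in every one.

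The last unigene taken, TRINITY_DN2137_c0_g3, had 30.1, 11.8 and 16.7 FPKM in S1, 27.5, 15.7 and 30.4 in S2 and 0.77, 3.12 and 1.67 in S3. The first one left out, TRINITY_DN8224_c1_g4, had 14.5, 64.8 and 70.4 FPKM in S1, 34.8, 35.5 and 44.6 in S2 and 7.53, 2.57 and 1.62 in S3. Their differences from S2 to S3 were -3.19 and -3.18. The 5 last taken lay between -3.20 and -3.19 and the 5 first left out between -3.18 and -3.13, so the edge of the group is no gap in the data.

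Replicates of S3 were not equally low in every unigene. The widest S3 range on the log2(FPKM + 1) scale, 3.88, was that of TRINITY_DN904_c1_g1, with 0.22, 12.4 and 16.9 FPKM in S3 after 81.7, 73.7 and 69.5 in S1 and 103, 92.5 and 107 in S2. The narrowest was 0, in the 16 unigenes listed at 0 throughout S3. In all, 156 unigenes were above 0 in all 3 S3 libraries and 28 were listed at 0 in 1 or 2 of them. By library, 24, 33 and 31 of the 200 were listed at 0 in S3 replicates 1, 2 and 3. None was listed at 0 in any S1 or S2 library.

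The level at harvest rested on libraries that did not match each other. S1 replicate 1 was the lowest of the 3 S1 libraries in 149 of the 200 unigenes (74.5%), against 64.5% of the other 4709 that met the conditions and 40.3% of all unigenes tested. Its difference from the mean of S1 replicates 2 and 3 had a median of -0.80 on the log2(FPKM + 1) scale in the 200, -0.24 in the others that met the conditions and -0.03 over all unigenes tested. It was lower by more than 1 in 87 of the 200 (43.5%) and higher by more than 1 in 10 (5.0%), where the shares over all unigenes tested were 8.06% and 8.22%. The sets were not matched for level, and the 200 had the higher levels. A unigene near 1 FPKM can hardly lie lower by more than 1 on this scale, so these shares are no like comparison. The condition on the S1 and S2 means bounds the average of the S1 libraries and not the spread among them.

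**Figure D3:**
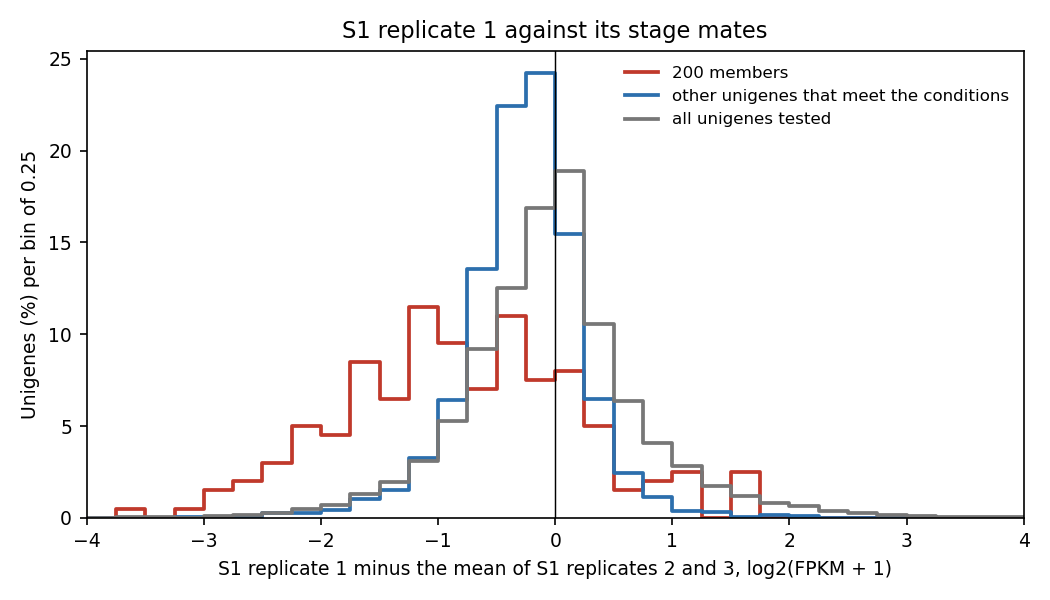
Difference of S1 replicate 1 from the mean of S1 replicates 2 and 3, in log2(FPKM + 1), for the 200 members, the other 4709 unigenes that met the conditions and all 30201 unigenes tested. The vertical axis is the percent of each group in bins of 0.25. The members spread far to the left of 0, with a median of -0.80, while all unigenes tested centre on -0.03.

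The spread between replicates gave the same picture. The SD between replicates had a median of 0.59 in S1, 0.15 in S2 and 0.27 in S3 over the 200, on the log2(FPKM + 1) scale. Over all unigenes tested these medians were 0.30, 0.15 and 0.24. The 200 were thus about as even in S2 as all unigenes tested, and less even in S1. The other 4709 that met the conditions had medians of 0.24 in S1 and 0.12 in S2. The median in S2 was 0.10 in 16017 unannotated unigenes tested with a mean of at least 5 FPKM. Beside these sets, the 200 were less even in S2 too. None of the sets was matched to the 200 for level. Within S2, replicate 2 was the lowest in 114 of the 200, and in 24.0% of all unigenes tested. Replicate 3 was the highest in 124 of the 200, and in 37.6% of all unigenes tested. The median differences of replicates 2 and 3 from the other S2 libraries were small, at -0.12 and 0.15.

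How far the level was kept from S1 to S2 depended on S1 replicate 1. With all 9 libraries the median S2 minus S1 difference over the 200 was 0.04, and it was positive in 112, negative in 87 and exactly 0 in 1. Against S1 replicates 2 and 3 alone it was -0.23, with S2 lower by more than 0.5 in 49 unigenes and higher by more than 0.5 in 8. Against S1 replicate 1 alone it was 0.58, with S2 higher by more than 0.5 in 115 and lower by more than 0.5 in 13. Of all 30201 unigenes tested, 6239 were lower and 4913 higher by more than 0.5 against S1 replicates 2 and 3. Against S1 replicate 1 alone, 7586 of them were higher and 7698 lower by more than 0.5. The difference of exactly 0 was that of TRINITY_DN35636_c0_g1, which has the same values, 44.1, 42.2 and 45.5 FPKM in replicates 1, 2 and 3, under S1 and under S2, and 2.83, 2.10 and 3.28 in S3. Among all 57814 unigenes it was the only one above 0 with the same 3 values in S1 and S2, and none had the same 3 values in S3 and another stage. Its S1 and S2 values cannot be read as independent measurements, and without it the median difference over the other 199 was 0.05. The ranges of S1 and S2 overlapped in 181 unigenes, and in 114 of these the S2 range lay wholly inside the S1 range. The condition on the S1 and S2 means favours such overlap, and its share over other unigenes was not counted.

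Without S1 replicate 1, limma called 31 of the 200 lower in S2 than in S1 and none higher. Over all unigenes tested in that run, 20.2% were called in either direction. The share called lower alone is not given here, so the 31 lower calls have no like share beside them. Without S1 replicate 2 it called 1 lower and 1 higher, and without S1 replicate 3 it called 1, which was higher. No share over all unigenes tested is given for these runs. The 1 unigene called with all 9 libraries was TRINITY_DN2663_c0_g1, at 257, 233 and 264 FPKM in S1, 197, 171 and 188 in S2 and 3.59, 2.76 and 3.20 in S3. It differed from most of the others in that its S1 replicates lay close together. Its S2 minus S1 difference was -0.44 ± 0.11 (SE, limma adjusted p = 0.027). It was named after its values were seen.

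The position of S1 replicate 1 went with the S2 to S3 difference far beyond the 200. Among 16017 unannotated unigenes tested with a mean of at least 5 FPKM, the difference of S1 replicate 1 from the other S1 libraries had Pearson's r of 0.53 with S3 minus S2, across unigenes, which are not independent replicates. By this definition the 16017 include the 200, whose S3 minus S2 differences were all -3.19 or lower. No library enters both measures. In unigenes that fell by at least 4 on the log2(FPKM + 1) scale the median position of S1 replicate 1 was -0.83 (n = 335), in those that fell by 1 to 2 it was -0.42 (n = 1494), in those that rose by up to 1 it was 0.06 (n = 5892) and in those that rose by over 2 it was 1.10 (n = 914). S1 replicate 1 thus tended to lie below its mates in unigenes that fell and above them in those that rose. There were exceptions, since it was the highest of S1 in 18.8% of those that fell by at least 4. It was the lowest of S1 in 5.3% of those that rose by over 2. The distance of each S1 library from the S3 level was not compared. What set this library apart was not tested.

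**Figure D4:**
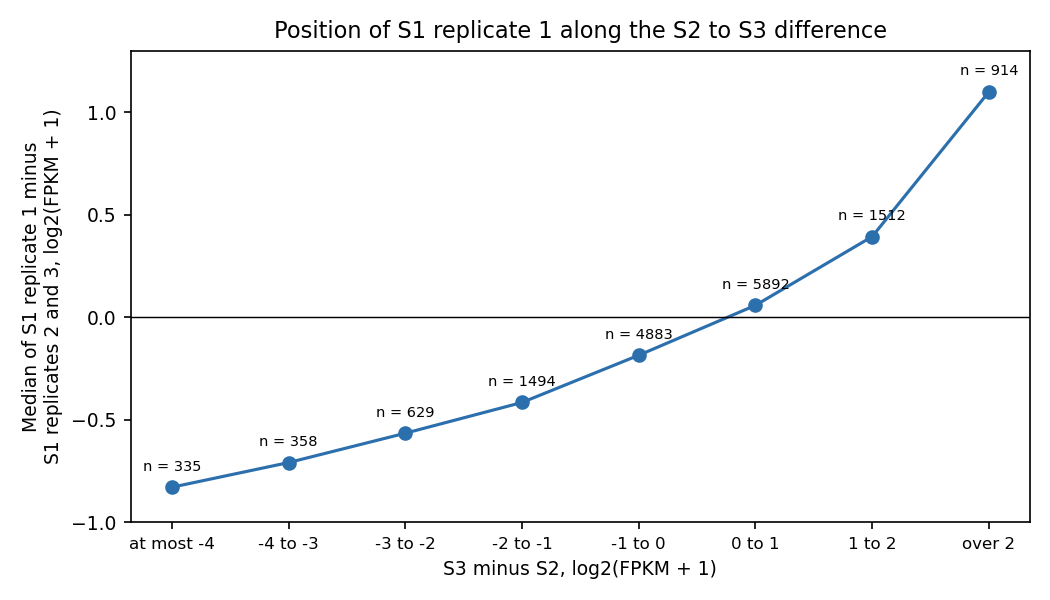
Median difference of S1 replicate 1 from S1 replicates 2 and 3, in log2(FPKM + 1), for unannotated unigenes tested with a mean of at least 5 FPKM, grouped by their S3 minus S2 difference in log2(FPKM + 1). The number of unigenes stands above each point, and the medians rise from -0.83 to 1.10.

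Whether each library lay on the side of its stage mates was read by leaving it out of the choice. When the choice was made on 8 libraries and the value of the ninth was looked up afterwards, 198, 200 and 198 of the 200 unigenes chosen without S3 replicates 1, 2 and 3 had a value in that library below every S1 and S2 library. Over all unigenes tested, 28.9%, 28.5% and 28.7% had such a value. Of the unigenes chosen without S1 replicates 1, 2 and 3, 200, 197 and 200 had a value above every S3 library in the one left out. For S2 replicates 1, 2 and 3, the counts were 200, 200 and 193. Over all unigenes tested these shares ranged from 36.6% to 40.4%. All shares over the unigenes tested include unigenes not chosen for a fall, so they are no like comparison. The choice on 8 libraries already set a wide gap between S3 and the earlier stages. The counts thus show only that the library left out lay with its stage mates, and are no independent test of the loss.

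The libraries left out differed in how near they came to their stage mates. The unigenes chosen without S3 replicates 1, 2 and 3 had median differences of 0.16, -0.08 and 0.02 between the library left out and the other S3 libraries, on the log2(FPKM + 1) scale. In 10, 5 and 23 of them the library left out was higher by more than 1, so a part of the unigenes chosen on a pair of S3 libraries were less low in the remaining one. Those chosen without S1 replicate 1 had a median difference of -0.86 in it, and 91 of them were lower there by more than 1. Of these 200 unigenes, 129 were among the 200 chosen on all libraries, and the choices without each of the other 8 libraries shared 147 to 192. Without S1 replicate 1, 57 of the 200 no longer met the condition on S1 and S2.

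Trinity groups transcripts that overlap in sequence into clusters, within which it separates genes. The 200 unigenes came from 195 clusters, of which 5 held a pair of them, and 77 of the 200 were alone in their cluster. The others shared a cluster with 242 sister unigenes, whose values had no part in the choice, apart from their not being among the 200. Sister unigenes can share reads with a member, and how the authors' counting divided such reads is not given in the sources used here.

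Of the 140 sisters that were tested, limma called 77 lower (55.0%) and 21 higher (15.0%) from S2 to S3, beside the 23.2% and 23.3% over all unigenes tested. Their median S3 minus S2 difference was -0.86 and that of all unigenes tested was 0.00. From S1 to S2 it called 14 sisters lower and 14 higher, with a median of 0.02. The conditions of the choice were met by 39 of the 140 sisters (27.9%) and by 13.3% of all unigenes tested. In 54 of the 99 clusters with a tested sister, every tested sister was called lower. A sister was called lower in 66 of these clusters and higher in 17, and both kinds occurred in 3.

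**Figure D5:**
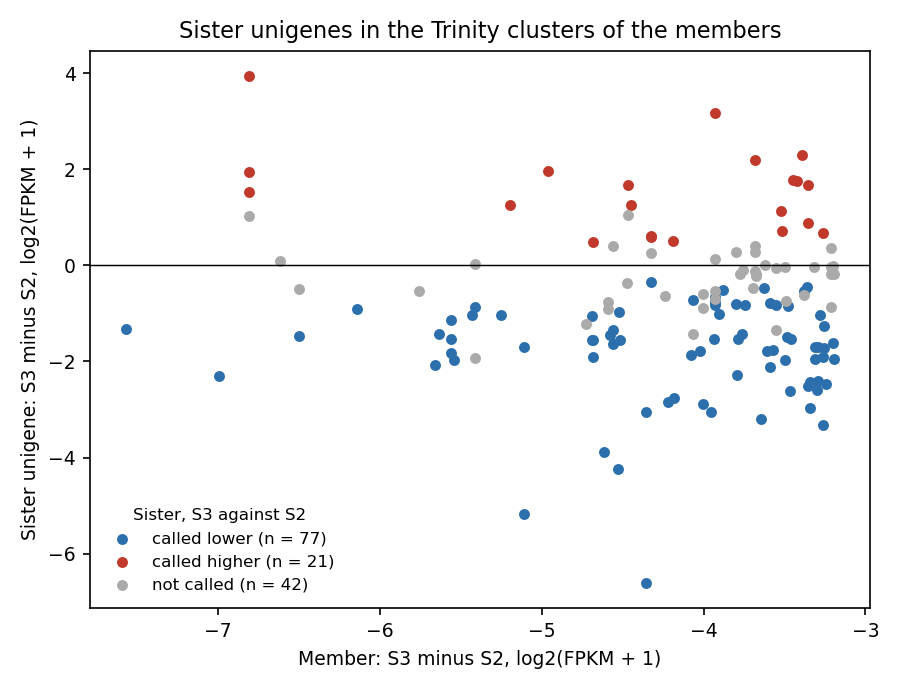
S3 minus S2 difference, in log2(FPKM + 1), of each of the 140 tested sister unigenes against that of the member in its cluster (the mean where a cluster holds a pair of members). Colours give the limma call of the sister, with 77 lower, 21 higher and 42 not called. The highest sister lies in the cluster of TRINITY_DN3317_c3_g6.

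The cluster of TRINITY_DN3317_c3_g6 held the only sister with a name. This sister, TRINITY_DN3317_c3_g1, is listed by the study as FSG0093660. It was taken as a bHLH gene, a transcription factor of the basic helix-loop-helix family. It moved against the member, with 15.3, 16.9 and 11.8 FPKM in S1, 21.7, 42.0 and 32.3 in S2 and 122, 93.4 and 65.2 in S3. Every S3 library was above every S1 and S2 library, and the S3 minus S2 difference was 1.52 ± 0.29 (SE, limma adjusted p = 0.0027).

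2 other sisters in this cluster, singled out after their values were seen, were also higher in S3. TRINITY_DN3317_c3_g2 went from 3.13, 4.96 and 4.29 FPKM in S2 to 22.7, 15.8 and 17.6 in S3, and TRINITY_DN3317_c3_g3 from 11.9, 15.4 and 16.3 to 217, 223 and 270. Their differences were 1.94 ± 0.21 (SE, limma adjusted p = 1.55e-04) and 3.94 ± 0.83 (SE, limma adjusted p = 0.0046). Within 1 cluster, the member was thus lost by S3 while 3 tested sisters rose and another, TRINITY_DN3317_c3_g5, had a difference of 1.03 ± 0.41 (SE) that did not pass the test (limma adjusted p = 0.067).

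Where a cluster held a pair of members, both are counted, and whether they come from 1 gene is not known. In the cluster TRINITY_DN4897_c0 both unigenes were low in S1 replicate 1. The g5 unigene had 149, 485 and 618 FPKM in S1, 266, 262 and 239 in S2 and 9.35, 23.5 and 56.2 in S3, and the g4 unigene had 118, 305 and 383 in S1, 169, 166 and 175 in S2 and 12.0, 11.5 and 32.0 in S3. In the cluster TRINITY_DN12152_c0 S1 replicate 1 was not low. There the g3 unigene had 24.2, 19.3 and 19.0 FPKM in S1, 13.3, 16.4 and 18.7 in S2 and 0.08, 0 and 0 in S3. Its partner, the g2 unigene, had 12.0, 9.93 and 12.3 FPKM in S1, 8.28, 10.6 and 13.7 in S2 and 0.18, 0 and 0 in S3. In the cluster TRINITY_DN2663_c0 the pair differed, since the g2 unigene had 32.9, 54.5 and 75.9 FPKM in S1 while the S1 libraries of the g1 unigene, given above, lay close together. These clusters were picked as examples after their values were seen.

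The named unigenes nearest to the 200 are transcription factors. Of the 165 unigenes in the tables that the choice left out, 21 met its conditions, where 13.3% of all unigenes tested did. Among the 21, 4 had an S3 minus S2 difference as low as those of the 200. Transcription factors made up 137 of the 229 unigenes that the tables name or that were matched to them. That the 4 are transcription factors is therefore not read as a trait of the nearest unigenes. All 4 were chosen by the study for the flavonoid pathway on these samples. 3 are bHLH genes and 1 is a MYB gene, families whose members are known in plants to act together on the promoters of flavonoid genes.

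The bHLH gene FSG0227110 (TRINITY_DN1643_c0_g1) had 169, 161 and 199 FPKM in S1, 94.7, 319 and 385 in S2 and 1.75, 0.11 and 1.62 in S3. Its S3 minus S2 difference was -6.83, and the uneven stage was S2, with replicate 1 the low one. The bHLH gene FSG0259820 (TRINITY_DN1361_c0_g1) had 36.4, 31.5 and 45.9 FPKM in S1, 24.7, 57.1 and 78.3 in S2 and 0.94, 1.40 and 0.97 in S3. It too was lowest in S2 replicate 1 among the early libraries.

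The bHLH gene FSG0214280 (TRINITY_DN3969_c0_g1) had 17.9, 10.5 and 15.0 FPKM in S1, 9.05, 16.9 and 22.8 in S2 and 0, 0 and 0.33 in S3, and S2 replicate 1 was again the lowest early library. The MYB gene FSG0221650 (TRINITY_DN34951_c0_g1) had 16.2, 14.7 and 24.0 FPKM in S1, 23.9, 15.4 and 19.4 in S2 and 0.27, 0.08 and 0.37 in S3. In the MYB gene, S1 and S2 overlapped and no early library stood apart.

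Among all 229 unigenes that the tables name or that could be matched to them through their values, these 9-library profiles were compared with the mean profile of the 200. The MYB gene FSG0221650 was the most like it, with Pearson's r of 0.992 over the 9 libraries. FSG0022040 (TRINITY_DN4405_c0_g3) followed with 0.989. It was taken as a bZIP gene, of the basic leucine zipper family of transcription factors, from its place in the study's list. It had 15.6, 14.4 and 18.4 FPKM in S1, 17.0, 19.0 and 19.1 in S2 and 2.74, 2.25 and 2.03 in S3. The bZIP gene FSG0046700 (TRINITY_DN32450_c0_g1) had r of 0.979, with 16.7, 14.7 and 19.4 FPKM in S1, 12.4, 16.5 and 17.2 in S2 and 3.92, 3.82 and 3.50 in S3. With 3 libraries at a low level in every such profile, r mostly measures the gap between S3 and the earlier stages, and the bZIP genes kept more of their S2 level than most of the 200 did.

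Across the transcription factor families, which the study selected on these samples, limma called 22 of 33 bHLH unigenes lower and 9 higher from S2 to S3, beside 23.2% lower and 23.3% higher over all unigenes tested. Of 45 MYB unigenes, 19 were called lower and 17 higher. Of 25 WRKY unigenes, 6 were called lower and 13 higher, of 19 tested bZIP unigenes 9 and 6, and of 14 Dof unigenes 6 and 5. Of 85 tested structural genes, which encode enzymes of the phenylpropanoid and flavonoid pathway and glycosyltransferases, 26 were called lower and 29 higher. None of the structural genes both met the conditions and fell as far as the 200 did, and SeF3H, which encodes flavanone 3-hydroxylase, came nearest with a difference of -2.32.

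The named unigenes differed from the 200 in which early library stood apart. In 142 of the 165 with a mean of at least 5 FPKM, the position of S1 replicate 1 had r of -0.14 with S3 minus S2, against 0.53 in the 16017 unannotated unigenes. The position of S2 replicate 1 had r of 0.59 with S3 minus S1 in the 142, against -0.08 in the 16017. The median SD between replicates was 0.18 in S1 and 0.41 in S2 in the 142, and 0.24 and 0.10 in the 16017, on the log2(FPKM + 1) scale. The stage of uneven replicates was thus S1 in unannotated and S2 in named unigenes, as the files give their columns. The conditions of the choice treat S1 and S2 alike, so the count of 21 does not depend on which of these columns is which, but the calls from S2 to S3 do. From S1 to S3, limma called 15 of the 33 bHLH unigenes lower and 8 higher, and 37 of the 85 structural genes lower and 17 higher. Over all unigenes tested, 25.4% were called lower from S1 to S3, and the share called higher is not given here. The study selected these named unigenes on the same samples. Stage values of the named unigenes are given here as the files order them, and the source of the difference was not tested.

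Over the whole series, total FPKM was 801066 to 832808 in the S3 libraries and 868507 to 914583 in the others. Unigenes above 0 numbered 40109 to 40304 in S3 and 41887 to 44825 in the others. No counts of reads are given for unigenes, so no counting interval was computed. None of the 200 shared its 9 values with another unigene under any order of the stages. In the files 938 sets of unigenes with a value of at least 1 did so, with a median of 1 library above 0. In 1 of these sets all 9 libraries were above 0, and there SePAL4 (TRINITY_DN1395_c0_g1), listed as a phenylalanine ammonia-lyase gene, and the unigene TRINITY_DN3049_c0_g2 hold the same values with S1 and S2 exchanged.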

How the data were processed

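The 200 unigenes and the lists of named unigenes were chosen with earlier results of these data known. The authors deposited FPKM, rounded to 2 decimals, for every unigene and library. Reads had been filtered with fastp, per the submitters' processing notes. Its version, the aligner, the counter and how values were scaled were not given in the sources used here. From the values alone, FPKM and a similar unit scaled to a fixed total cannot be told apart where rows were left out. The 8 unnamed columns in 1 file were not used. Names come from the study's supplementary tables. Families of transcription factors listed there without one were read from the order of the list and the study's counts per family. Entries without an identifier were matched through their 9 values to 2 decimals. Such entries matched 1 unigene in 91 of 95 cases, 72 in the order of the files, 9 with S1 and S2 exchanged and 10 under another order of the stages. The values of the files were used for all, so the stages of these unigenes are uncertain.

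All 9 libraries were fitted together with limma 3.58.1 (lmFit, eBayes with trend) in R 4.3.3 on log2(FPKM + 1). Tested were the 30201 unigenes that reached 1 FPKM in 3 or more libraries. Calls were made at a Benjamini-Hochberg adjusted p under 0.05, and other steps used Python 3.11.15 with pandas 2.3.3. The study names a T-test for groups in general and no tool for RNA-seq. The adjusted p rests on the spread between libraries within stages, which the fit pools over all 9 libraries for each unigene. The SE of a unigene is therefore the same in every comparison. The uneven S1 libraries thus enter the calls from S2 to S3 as well as those between S1 and S2. The fit was also run on simulated data, with an outcome not given here. There each unigene had the same spread in every stage, so that run cannot speak to stages of uneven spread.

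The text names the 6 unigenes with the lowest S3 minus S2, the 3 with the highest mean over S1 and S2, the last taken and the first left out, the 2 best expressed among those listed at 0 in S3, and those with the widest and narrowest S3 range. Of named unigenes it takes those that met the conditions with as low a difference, those in a cluster of the 200 and the 3 with the highest r. Exceptions are marked, and SeF3H, SePAL4, TRINITY_DN3049_c0_g2 and TRINITY_DN35636_c0_g1 were added after their values were seen. Alternatives were median-of-ratios scaling, quantile normalization, a pseudocount of 0.1, filters at FPKM above 0 and at 5, a fit on 6 libraries, a block for replicate numbers, leaving out each library, and an adjusted p under 0.01.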

Additional observations from a re-analysis of the deposited data

How the results depend on the processing

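All 200 unigenes were called lower from S2 to S3 and from S1 to S3 under every alternative. Since the choice used these differences, the counts could hardly come out otherwise, and nothing is read from them. The unigenes called between S1 and S2 numbered 1, with 3 at a filter of FPKM 5, 3 with only the 6 libraries compared, 0 at an adjusted p under 0.01 and 0 to 31 with a library left out, the 31 being without S1 replicate 1. Shares over all unigenes tested are not given for these settings, except without S1 replicate 1. The median S3 minus S2 difference of -3.81 became -5.20 with a pseudocount of 0.1, and the choice repeated with it shared 126 unigenes with the 200. With a library left out it shared 129 to 192. At a filter of FPKM 5, the unigenes that met the conditions numbered 3030, since fewer unigenes were tested. There 75 sisters were tested and 46 called lower, of which 45 were among the 77. The share called lower over all unigenes tested at this filter is not given here. The medians against S1 replicate 1 alone, 0.58, and without it, -0.23, were added after seeing the data. The 18 named unigenes kept the direction and the call of their S2 to S3 difference in all 306 alternative values. Many of the 18 were picked by that difference, so nothing is read from this either. With the replicate number as a block, 200, 200 and 1 of the 200 were called in the S2 to S3, S1 to S3 and S1 to S2 comparisons and 72 sisters were called lower. Shares over all unigenes tested are not given for the block. Libraries with the same number had correlations of -0.14 to 0.04 in their deviations from the stage means, so the numbers were not read as a pairing, and no call count moved by over 1.5 times with the block.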
